A study of Mus musculus with 10 samples.

Results

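A set of 4 genes of hepatic fatty acid synthesis and its control, Acaca, Fasn, Acss2 and Insig1, were followed across the livers of 10 female mice. They were 4 of 7409 genes named on the array. A gene's members were the probes whose identifier holds its gene number, and the brightest probe of each gene carried the levels. The 4 genes were chosen because their mean was higher in heterozygous than in wildtype liver in these same data. Their genotype difference is therefore given as a description, without a test.

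One group was 5 mice heterozygous for Gyk and the other 5 wildtype mice of the C57Bl/6J strain. Gyk, on the X chromosome, codes for glycerol kinase, which lets liver reuse glycerol. The study's design text calls the mice transgenic, and the labels do not state which part of the gene was altered. All 10 mice were female and 23 weeks old, and all ate chow with 4% fat until 11 weeks of age and with 6% fat from then on. One X chromosome is silenced in each female cell, so in a heterozygous female some hepatocytes use the intact copy of Gyk and others the altered one. Each mouse gave 1 Illumina bead array of total liver RNA. The number of arrays limits the precision.

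Hepatocytes turn surplus carbohydrate into fatty acids. Acss2 and ATP citrate lyase supply cytosolic acetyl-CoA, Acaca (acetyl-CoA carboxylase 1) makes malonyl-CoA from it, and Fasn (fatty acid synthase) extends malonyl-CoA into palmitate. The transcription factor SREBP-1c raises these genes when insulin is high, and its relative SREBP-2 serves cholesterol synthesis. Insig1, itself a target of SREBP, holds the precursors of both factors in the endoplasmic reticulum when sterols are plentiful.

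The windows around the annotated starts of the 4 genes are shown because the 4 genes are grouped as SREBP targets, and SREBP acts through elements near such starts. They come from RefSeq on build GRCm38.p6, 250 bases before to 50 after the start, and all 4 genes had a window. They are Acaca at chr11:84195188-84195487 on the plus strand, Fasn at chr11:120824498-120824797 on the minus strand, Acss2 at chr2:155517793-155518092 on the plus strand and Insig1 at chr5:28071162-28071461 on the plus strand. Each is printed 5′ to 3′ on the gene's own strand, and capitals mark matches on either strand to CACGTG (the E-box bound by USF factors and SREBP) or to CCAAT (the box bound by NF-Y).
Acaca: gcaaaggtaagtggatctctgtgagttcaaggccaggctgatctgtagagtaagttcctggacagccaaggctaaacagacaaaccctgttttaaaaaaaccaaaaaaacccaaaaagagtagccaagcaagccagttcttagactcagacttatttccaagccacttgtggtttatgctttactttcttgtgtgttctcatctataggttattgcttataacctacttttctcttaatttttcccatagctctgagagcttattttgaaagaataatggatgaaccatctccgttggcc
Fasn: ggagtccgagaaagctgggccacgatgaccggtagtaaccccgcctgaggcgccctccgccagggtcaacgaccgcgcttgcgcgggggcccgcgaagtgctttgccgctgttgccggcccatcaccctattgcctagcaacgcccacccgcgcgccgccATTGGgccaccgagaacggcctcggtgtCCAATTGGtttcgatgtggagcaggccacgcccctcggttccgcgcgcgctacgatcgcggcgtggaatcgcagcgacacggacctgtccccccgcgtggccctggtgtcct
Acss2: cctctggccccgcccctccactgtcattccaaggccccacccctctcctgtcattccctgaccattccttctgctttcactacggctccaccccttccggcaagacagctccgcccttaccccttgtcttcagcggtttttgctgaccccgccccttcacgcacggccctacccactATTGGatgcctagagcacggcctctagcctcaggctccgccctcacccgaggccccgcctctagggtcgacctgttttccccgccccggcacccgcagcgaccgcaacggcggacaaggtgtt
Insig1: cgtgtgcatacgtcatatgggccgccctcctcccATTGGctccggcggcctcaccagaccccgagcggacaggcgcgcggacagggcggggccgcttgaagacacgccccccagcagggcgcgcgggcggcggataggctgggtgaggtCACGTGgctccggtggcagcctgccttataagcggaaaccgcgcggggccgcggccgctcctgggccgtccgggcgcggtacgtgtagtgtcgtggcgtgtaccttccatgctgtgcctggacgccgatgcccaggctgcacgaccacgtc

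In these windows the Insig1 sequence held 1 E-box, at bases 150 to 155 of the window, 1 CCAAT box on the opposite strand and 3 matches to GGGCGG, the GC box of SP1. Fasn held 3 CCAAT matches, of which the pair at bases 189 to 193 and 192 to 196 overlap on opposite strands. Acss2 held 1 CCAAT match on the opposite strand and 5 matches to GGGCGG, and the Acaca window held no match to any motif searched. G and C made up 39.7% of the Acaca window, against 65.0% in Acss2, 69.3% in Fasn and 71.7% in Insig1. Whether liver starts its Acaca transcripts in this window was not tested, so the lack of matches does not describe the liver promoter. The sterol response element in the form TCACNCCAC matched none of the 4 windows. Of 32851 such windows of all genes, 1.24% held that form, 7.15% the E-box, 37.4% CCAAT and 35.7% GGGCGG, counting both strands. A match is a run of letters and not a known site, and a missing match says only that these letters are not in this window.

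The arrays of heterozygous replicate 1 and wildtype replicate 1 stood apart from the rest. Across probes, which are not independent replicates, r was 0.991 for that pair. Between either of them and the remaining 8 arrays r lay from 0.934 to 0.967, and within those 8 from 0.965 to 0.990. The sample titles also carry a leading number whose meaning is not given in the labels. It was 1 in 3 heterozygous mice and 1 wildtype mouse, 2 in 2 heterozygous mice and 1 wildtype mouse, and 7 in wildtype replicates 3, 4 and 5 alone, so genotype and number cannot be told apart in those 3 mice. For Gyk itself the mean intensity was 319.7 ± 90.1 in heterozygous against 559 ± 209 in wildtype mice (SD, n = 5 each), and its limma adjusted p was 0.332. The place of its probe relative to the altered part is not known here. Of 6 hepatocyte markers 1 had a named probe, Apoa1, whose intensity lay between 38189 and 55556 in every mouse.

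Across all 10225 probes kept as detected, limma called 0 at an adjusted p under 0.05 (0% of those tested) and 1221 at an unadjusted p under 0.05 (11.9%). Of the 4 genes 0 were called. The groups did not overlap for 1.77% of the probes and for 0 of the 4 genes, and the heterozygous mean was the higher one for 46.5% of the probes and, by choice, for all 4 genes. Nothing is read from these counts, since the genes were chosen on this comparison. Without wildtype replicate 1 limma called 441 probes, and without both arrays that stood apart 221.

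**Figure D1:**
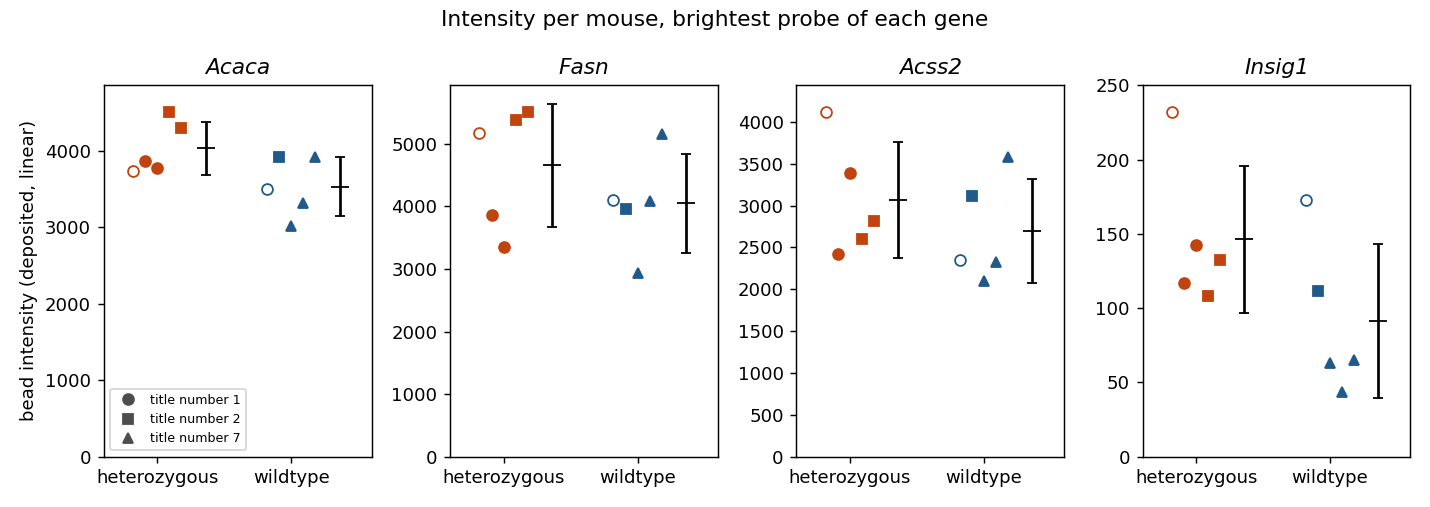
Deposited bead intensity (linear, from 0) of the brightest probe of each gene in every mouse, with black marks for the group mean and SD (n = 5). Marker shapes give the leading number of the sample title and open markers the 2 arrays that stood apart, and for each gene the lowest wildtype mouse lies under every heterozygous mouse.

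Acaca, the enzyme of the committed step, varied least among mice. Its intensity was 3729.8, 3859.9, 3774.0, 4497.9 and 4294.8 in heterozygous replicates 1 to 5. Among the wildtype mice, in the same order, it was 3493.2, 3914.1, 3016.6, 3312.4 and 3911.1. Heterozygous replicates 4 and 5 were the 2 highest mice, and wildtype replicates 1, 3 and 4 lay under every heterozygous mouse. The means were 4031 ± 344 and 3529 ± 389 (SD, n = 5 each), so that the coefficient of variation was 8.54% and 11.0%. On the normalized log2 scale the difference, heterozygous minus wildtype, was 0.24 (SE 0.09), and of the 25 pairs of a heterozygous and a wildtype mouse 22 had the heterozygous one higher. That difference was 0.26 between mice of title number 1 (3 against 1) and 0.25 between mice of number 2 (2 against 1).

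Fasn spread more widely within both genotypes. Its intensity was 5180.3, 3869.5, 3347.8, 5380.4 and 5500.7 in heterozygous replicates 1 to 5. In wildtype replicates 1 to 5 it was 4105.0, 3958.0, 2931.0, 4090.6 and 5150.1. Heterozygous replicates 1, 4 and 5 were the 3 highest mice, wildtype replicate 5 lay just under them, and heterozygous replicates 2 and 3 lay within the wildtype range, so the groups overlapped. The means were 4656 ± 980.2 and 4047 ± 787 (SD, n = 5 each), a normalized log2 difference of 0.24 (SE 0.16). The log2 difference was 0.11 between mice of title number 1 and 0.52 between mice of number 2, where both heterozygous mice were among the high ones. Without heterozygous replicate 3, the lowest of its group, it was 0.36.

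Acss2, which activates acetate in the cytosol and nucleus, was highest on an array that stood apart. Its intensity was 4112.8, 2419.3, 3389.9, 2600.8 and 2818.0 in heterozygous replicates 1 to 5. In wildtype replicates 1 to 5 it was 2349.4, 3117.8, 2104.0, 2330.3 and 3580.1. Wildtype replicate 2 exceeded 3 of the heterozygous mice and wildtype replicate 5 exceeded 4, while the other 3 wildtype mice lay under all of them. The means were 3068 ± 689 and 2696 ± 625 (SD, n = 5 each), a normalized log2 difference of 0.21 (SE 0.16). Without both arrays that stood apart that difference was 0.05, and without heterozygous replicate 1 alone 0.11. Within title number 1 it was 0.54 and within number 2 it was -0.14, each against 1 wildtype mouse, so its sign was not the same in both.

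Insig1 had the largest log2 difference of the 4 genes and the dimmest probe. Its intensity was 231.7, 116.7, 142.6, 107.9 and 132.7 in heterozygous replicates 1 to 5. In wildtype replicates 1 to 5 it was 172.7, 111.6, 62.9, 43.4 and 65.3. The 2 highest mice were those on the arrays that stood apart, and wildtype replicates 3, 4 and 5 lay under every other mouse. The means were 146 ± 49.6 and 91.2 ± 52.0 (SD, n = 5 each), so the heterozygous mean was 160.5% of the wildtype mean on the intensity scale. The normalized log2 difference was 0.40 (SE 0.16), on a scale where the constant added to each value pulls differences of dim probes toward 0.

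The low Insig1 levels were those of the 3 wildtype mice with title number 7. Their mean normalized log2 value was 7.27, against 7.84 in the 2 wildtype mice with number 1 or 2 and 7.90 in the heterozygous mice. Within number 1 the log2 difference between genotypes was 0.03, and within number 2 it was 0.04, each resting on 1 wildtype mouse. In number 1 that mouse, at 7.96, was on an array that stood apart. Heterozygous replicate 1, on the other such array, had 8.27, and heterozygous replicates 2 and 3 had 7.75 and 7.93. These 2 differences therefore do not show that the genotypes were alike. With the number as a replicate block the difference was 0.031. Whether genotype or whatever the number stands for goes with low Insig1 cannot be told apart in those 3 mice. The same split did not appear in the other members: in wildtype liver the mice of number 7 differed from those of number 1 or 2 by -0.02 in Acaca, 0.06 in Fasn and 0.02 in Acss2 (log2), and by -0.57 in Insig1. A split by number was not particular to Insig1 among the listed genes. In Tkt, Usf1 and Lpin2, among others, the wildtype mice of number 7 lay above every other mouse. For Tkt they had 12.86, 13.24 and 13.16 (log2), against 12.72 and 12.70 in wildtype replicates 1 and 2. These splits were noticed after the values were seen and have no test.

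**Figure D2:**
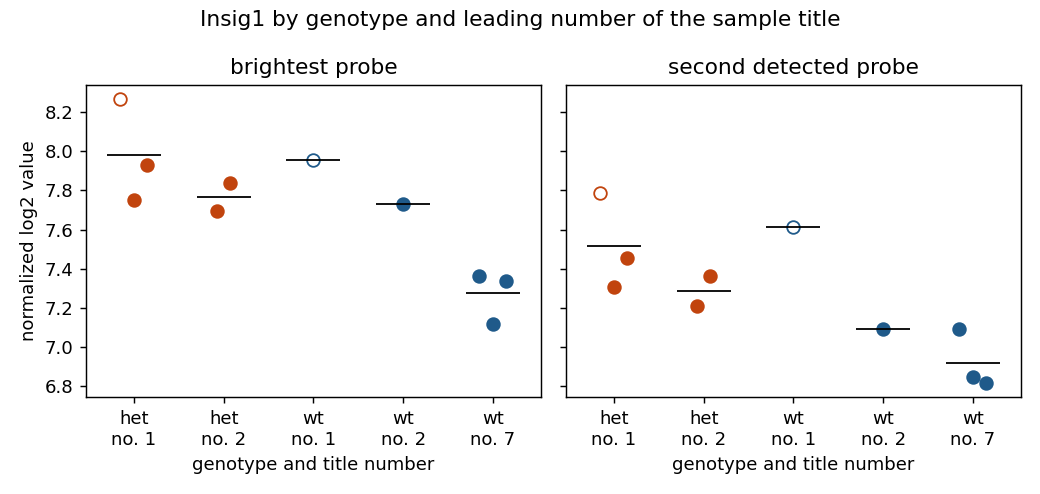
Normalized log2 values of the 2 detected Insig1 probes (vertical axis) by genotype and leading number of the sample title (horizontal axis), with lines at the class means and open markers for the arrays that stood apart. In the brightest probe the 3 wildtype mice with number 7 lie under every other mouse, while the 2 other wildtype mice lie among the heterozygous mice.

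Another Insig1 probe gave a second reading of the gene on the same arrays. Its intensity was 144.3, 55.5, 75.2, 46.7 and 66.5 in heterozygous replicates 1 to 5, all detected. In wildtype replicates 1 to 5 it was 117.8, 41.5, 35.9, 19.4 and 18.1, with 3 of the 5 detected. Its lowest mice were again those with number 7, and its highest again those on the arrays that stood apart. Its normalized log2 difference was 0.33 (SE 0.16), with -0.10 within number 1 and 0.19 within number 2, each against 1 wildtype mouse. The remaining Insig1 probe was detected in 0 of 10 mice, and the other 3 genes had 1 probe each. The differences of all 4 genes under each setting are drawn in the plot of settings.

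**Figure D3:**
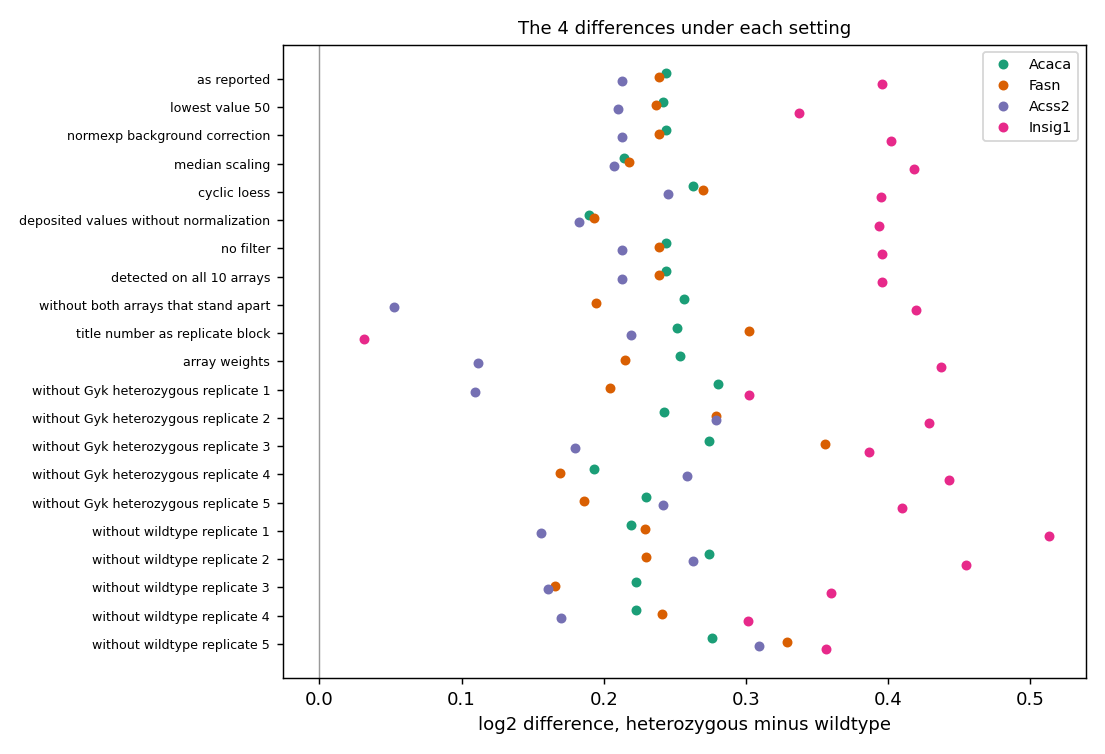
The normalized log2 difference (horizontal axis, heterozygous minus wildtype) of each gene under the reported setting and the alternatives (vertical axis). All points lie above 0, with Insig1 lowest at 0.031 under the title number as replicate block and Acss2 lowest at 0.05 without both arrays that stood apart.

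Whether the 4 genes moved together from mouse to mouse was asked after the genotype means had been taken out. This removed the mean difference on which the genes were chosen, but left differences between title numbers in the values. The 8 mice other than the 2 on arrays that stood apart were used, and values from all 10 stand beside them. A family of 10 relations was tested, 6 between members and 4 with Gyk, with two-sided exact permutation of mice within each genotype. None passed after Benjamini-Hochberg adjustment, with adjusted exact permutation p from 0.312 to 0.91.

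Acaca and Fasn, consecutive enzymes of the pathway, had the highest correlation. Over the 8 mice Pearson's r was 0.81 (exact permutation p = 0.03125, adjusted 0.312) and Spearman's rho was 0.83 (exact permutation p = 0.03125, adjusted 0.312). With all 10 mice r was 0.59 and rho 0.53 (exact permutation p = 0.0961 and 0.156, adjusted 0.481 and 0.52). Without the 2 mice farthest from the Acaca median r was 0.66 (exact permutation p = 0.194, 6 mice). Heterozygous replicate 4 and wildtype replicate 5 were above their genotype mean in both genes, and heterozygous replicate 3 and wildtype replicate 3 were below it in both. Wildtype replicate 2 was about as high as wildtype replicate 5 in Acaca, at 0.10 above its group mean (log2), but lay slightly below it in Fasn, at -0.05. Wildtype replicate 4 was as low as wildtype replicate 3 in Acaca, at -0.10, with Fasn at its group mean.

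Acss2 and Insig1 had the next highest value, r = 0.54 and rho = 0.50 over 8 mice (exact permutation p = 0.34 and 0.299, adjusted 0.91 and 0.816). With all 10 mice r was 0.33 and rho 0.19 (exact permutation p = 0.39 and 0.623), and without the 2 mice farthest from the Acss2 median r was 0.86 (exact permutation p = 0.139, 6 mice). Insig1 and Fasn had r = -0.28 and rho = -0.40 (exact permutation p = 0.491 and 0.34), with -0.08 and -0.32 over 10 mice (exact permutation p = 0.804 and 0.392) and r = -0.22 without the 2 mice farthest from the Fasn median (exact permutation p = 0.75). For Acaca and Acss2 r was 0.29 and rho 0.32 (exact permutation p = 0.455 and 0.413), with r = 0.02 over 10 mice and 0.33 without the 2 farthest. That r was 0.81 without heterozygous replicate 3 alone and 0.03 without wildtype replicate 5 alone. For Fasn and Acss2 r was 0.17 and rho 0.29 (exact permutation p = 0.677 and 0.55), with r = 0.26 over 10 mice and 0.43 without the 2 farthest. It was 0.74 without heterozygous replicate 3 alone and -0.29 without wildtype replicate 5 alone. For Acaca and Insig1 r was 0.16 and rho -0.14 (exact permutation p = 0.823 and 0.736), with r = -0.33 over 10 mice and 0.45 without the 2 farthest, so its sign depended on the mice and the measure. A p that misses the threshold does not show that the genes varied independently.

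**Figure D4:**
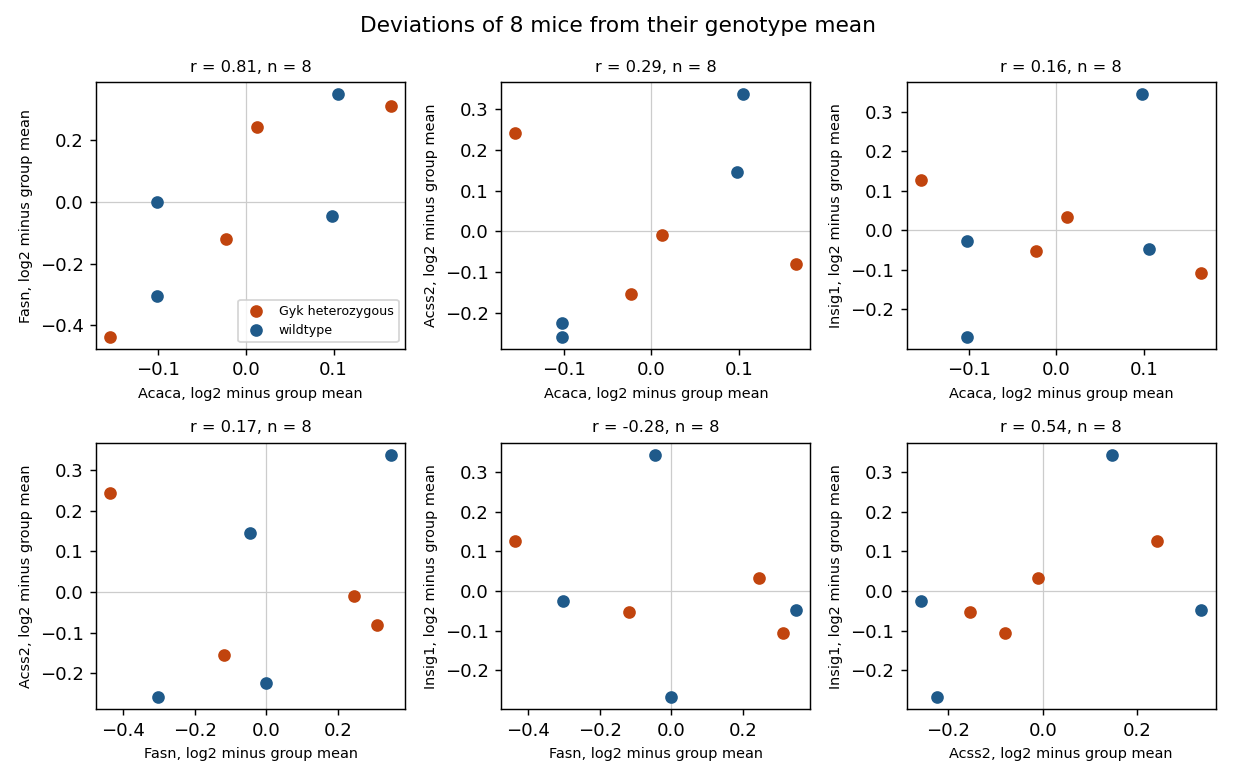
Deviations of 8 mice from their genotype mean (normalized log2) for each pair of genes, with r above each panel. Acaca and Fasn lie along a rising line at r = 0.81, while Fasn and Insig1 give r = -0.28.

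With Gyk, the altered gene, the members showed no relation that passed. Over 8 mice r was -0.18 for Acaca, 0.05 for Fasn, -0.17 for Acss2 and 0.06 for Insig1, and rho was -0.14, 0.02, 0.21 and 0.52 (adjusted exact permutation p from 0.816 to 0.986). Over 10 mice Insig1 with Gyk had r = 0.61 and rho = 0.64 (exact permutation p = 0.0956 and 0.0722, adjusted 0.481 and 0.499). Wildtype replicate 1, one of the arrays that stood apart, had the highest Gyk intensity of all mice at 914.2 and an Insig1 intensity under that of heterozygous replicate 1 alone. Without the 2 mice farthest from the member's median, r with Gyk over 6 mice was 0.32 for Acaca, -0.71 for Fasn, -0.05 for Acss2 and -0.23 for Insig1 (exact permutation p = 0.639, 0.229, 0.889 and 0.667).

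Among 2968 named genes detected on all 10 arrays, Glg1, Adgrl1, Efhb and Nrros were among the 5 most like the mean profile of the 4 members. Their r over the 8 mice was 0.96 for Glg1, 0.96 for Adgrl1, 0.95 for Efhb and 0.95 for Nrros. Over all 10 mice the same correlation was 0.40 for Glg1, 0.63 for Adgrl1, 0.80 for Efhb and 0.22 for Nrros, lower for each of the 4. The lowest values over 8 mice were those of Desi2 (-0.96), Ppp1r2 (-0.95) and Rnf11 (-0.95), which over 10 mice had -0.48, -0.56 and -0.60. The ranks are a description over 8 mice, with no test.

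Each single member had other genes among the most like it. For Acaca they were Ckb (0.97 over 8 mice and 0.79 over 10) and Ly6e (0.95 and 0.54). For Fasn they were Rab3gap2 (0.93 and 0.47) and Mki67 (0.91 and 0.84). For Acss2 they were Fem1al (0.94 and 0.26) and Ube2h (0.92 and 0.23), and for Insig1 the highest over 8 mice was Smdt1 (0.94 and 0.75). Fasn ranked 87 in likeness to Acaca, and Acaca 30 in likeness to Fasn, where each gene itself counts as the top rank.

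The rest of the lipogenic pathway was read from lists of 113 genes, of which 34 besides the members and Gyk had a kept probe. None of the 34 passed with limma, in either direction (smallest adjusted p 0.384), and 2 had an unadjusted p under 0.05, which is 5.88% of them beside 11.9% of all probes. Their mean was higher in heterozygous liver for 10 and lower for 24. A higher mean was thus found for 29.4% of them and for 46.5% of all probes, with a median log2 difference of -0.10 among them and -0.01 over all probes. The members are left out of these counts, since they were chosen for a higher heterozygous mean.

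Among the 7 other genes of fatty acid and NADPH supply, 3 had a higher and 4 a lower heterozygous mean. Acly, ATP citrate lyase, had an intensity of 4258 ± 289.9 and 4234 ± 813 in heterozygous and wildtype liver (SD, n = 5 each), a log2 difference of 0.08 (SE 0.11). Elovl6, which lengthens palmitate, had 731 ± 204 and 622 ± 109 (0.19, SE 0.17). Idh1, a cytosolic source of NADPH, had a log2 difference of 0.46 (SE 0.26), with the highest intensities on the arrays that stood apart, 2948.7 and 3441.2. The NADPH and pentose enzymes Pgd and Tkt had -0.09 and -0.25, and the desaturases Fads2 and Scd2 had -0.10 and -0.15. Acss1, the mitochondrial relative of Acss2, was detected in 3 heterozygous mice and 1 wildtype mouse and was not tested. The smallest limma adjusted p of these genes was 0.422, that of Tkt. In normalized log2 values of Tkt the wildtype mice of title number 7 lay above every other mouse, so genotype and number cannot be told apart there.

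In the machinery that controls SREBP, all 4 other listed genes with a kept probe had a lower heterozygous mean, and 0 passed (smallest limma adjusted p 0.678). The heterozygous mean was higher for 46.5% of all probes. Insig1 was chosen for a higher mean, so nothing is read from its contrast with these genes. Srebf2, which codes for SREBP-2, had 229 ± 32.3 and 284 ± 118 (SD, n = 5 each), a log2 difference of -0.18 (SE 0.18). Its intensity was 415.6 and 406.3 in wildtype replicates 2 and 5, and its median was 233.3 in heterozygous and 228.3 in wildtype mice. Mbtps2, the protease that frees the factors, had -0.06, and Rnf139, a ubiquitin ligase that binds Insig proteins, had -0.08. Fbxw7, which marks active SREBP for breakdown, had -0.09. The Srebf1 probe, for SREBP-1, was detected in 0 of 10 mice.

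Of 6 other lipogenic regulators 2 had a higher and 4 a lower mean, and 0 passed (smallest limma adjusted p 0.431). The 4 with the smallest p were Usf1, an E-box factor, at -0.28 (SE 0.14), Rxra, the partner of LXR, at 0.20 (SE 0.11), Nr1h3, which codes for LXR-alpha, at -0.13 (SE 0.09), and Usf2 at 0.31 (SE 0.28). Usf2 was detected in 3 of 5 wildtype mice, and its 2 highest intensities, 209.6 and 177.7, were on the arrays that stood apart. For Usf1 wildtype replicates 1 and 2 had intensities of 219.2 and 207.9, beside a heterozygous mean of 203.4. The wildtype mice of title number 7 had 256.5, 401.1 and 266.0, above every other mouse. For Rxra wildtype replicates 1 and 2 had 360.2 and 362.9, beside a heterozygous mean of 357.5. Those of number 7 had 229.1, 279.2 and 248.8, under all other mice but heterozygous replicate 2, at 270.2. Genotype and number cannot be told apart there. Of the LXR targets, the sterol exporter gene Abcg1 had 0.35 (SE 0.21) and Lpl -0.16 (SE 0.18). In insulin signalling Akt2 had -0.01, the transcription factor gene Foxo1 -0.07 and Pck1, of glucose production, -0.28. None of these 5 passed (smallest limma adjusted p 0.544).

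Cholesterol genes, the SREBP-2 arm that Insig1 also restrains, had a lower heterozygous mean for 4 of 8 and a higher one for the other 4, with a median of -0.03, and 0 passed (smallest limma adjusted p 0.654). The 4 with the smallest p were Nsdhl, a sterol demethylation enzyme, at -0.30 (SE 0.24), Acat2 at 0.18 (SE 0.15), Lss, which closes the sterol ring, at -0.32 (SE 0.32), and Hmgcs1, which makes HMG-CoA, at -0.25 (SE 0.31). Of 8 listed genes of glycerol and glycerolipid metabolism with a probe, not all of them of assembly, 5 were kept. All 5, Gyk included, were lower, while the heterozygous mean was higher for 46.5% of all probes. None passed (smallest limma adjusted p 0.332). They were Gyk at -0.65, Lpin2 at -0.48, Gpd2 at -0.33, Gpat4 at -0.32 and Pnpla2 at -0.23. In Lpin2 and Gpat4 the wildtype mice of title number 7 lay above every other mouse (log2), so genotype and number cannot be told apart there. For Lpin2 they had 11.38, 11.26 and 11.96. Wildtype replicates 1 and 2 had 10.59 and 10.84, beside a heterozygous mean of 10.73. Gyk and Pnpla2 did not show this split.

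**Figure D5:**
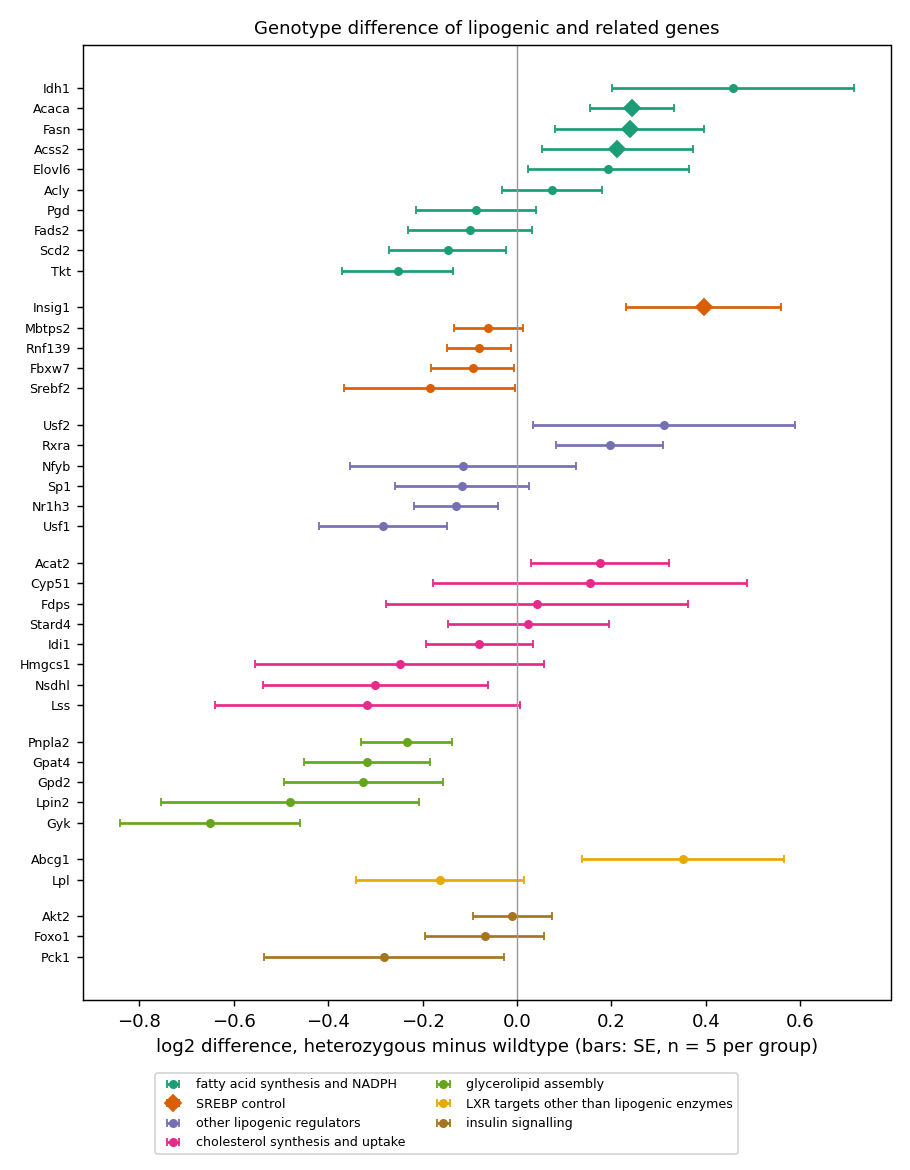
Normalized log2 difference, heterozygous minus wildtype, with SE (n = 5 per group), for each gene of the pathway lists with a kept probe, coloured by list, with diamonds for the 4 members. The members, chosen for a higher heterozygous mean, lie between 0.21 and 0.40, and the other genes of SREBP control lie between -0.18 and -0.06.

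The wildtype mice that were highest in Acss2 and Acaca were also highest in most cholesterol genes, which was noticed after the values were seen and was not tested. Wildtype replicates 2 and 5 were, in normalized log2 values, the 2 highest wildtype mice for 6 of the 8 cholesterol genes and for Srebf2. Hmgcs1 had an intensity of 34435.4 and 34440.3 in them, against 13994.4 to 17127.4 in the other 3 wildtype mice. Lss had 1045.5 and 1207.4 against 286.7 to 377.3. The same 2 mice were the highest wildtype mice for Acaca and Acss2, but not for Fasn or Insig1, and for 12.8% of all kept probes. The heterozygous mice did not show the same for Acaca. Heterozygous replicate 4, the highest in Acaca, had the lowest heterozygous Hmgcs1, Lss and Nsdhl intensities, at 11455.5, 381.0 and 2365.0. Heterozygous replicate 1, on an array that stood apart, was the lowest of its group in Acaca and the highest of all mice in Acss2. Its Lss and Nsdhl intensities, at 458.5 and 3878.3, were the highest heterozygous ones. In normalized log2 values its Lss, at 9.07, lay under that of heterozygous replicate 2, at 9.11.

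Markers of other liver cells were read beside these levels. In whole liver, fewer cells of a type and less RNA per cell cannot be told apart. All 4 Kupffer cell markers with a kept probe had a higher heterozygous mean, Csf1r at 0.41, C1qb at 0.36, Cd68 at 0.18 and C1qa at 0.12 (log2), and 0 passed (smallest limma adjusted p 0.339). The heterozygous mean was higher for 46.5% of all probes. Cd68 was detected in 4 heterozygous and 2 wildtype mice, with -20.7 in wildtype replicate 1, whose array stood apart. That mouse was also the lowest of all in C1qa and C1qb. The summed intensity of the 4 markers ran from 1223 to 2452 in heterozygous and from 966 to 2667 in wildtype mice. Fabp4, the adipocyte marker with a probe, had 19.8 to 47.6 in heterozygous and 27.5 to 65.0 in wildtype mice, near the detection thresholds of 22.0 to 41.2. Of 2 endothelial markers 1 was higher and 1 lower, likewise of 2 stellate and 2 lymphocyte markers, both erythroid markers were lower, and the bile duct marker Krt19 was detected in 0 of 10 mice. The part of these cells in the levels of the 4 genes was not tested.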

How the data were processed

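Biotin-labelled cRNA of liver RNA from 10 mice was hybridised to Illumina bead arrays, and BeadStudio 1.5.1.3 made the values, per the submitters' processing notes. The deposited values were linear bead intensity, 1 per probe and mouse for 24048 probes, with 31.1% to 33.1% below 0 on each array, so a background had been subtracted. Whether the authors also normalized the arrays to each other is not stated. An un-normalized table has 80 columns on 2 chips, named by chip and position, and since the labels give no chip position for any mouse, the 80 columns were not used and the chip could not be a block.

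A constant of 95.2 was added to every value, which set the lowest to 16. The log2 values were then made equal in distribution (quantile normalization, limma 3.58.1, R 4.3.3). Probes above 1.64 times the noise of their array (root mean square of the values below 0) on at least 5 of 10 arrays were kept, 10225 in all. Probes were named by matching the number in their identifier, if at least 11000 and after 1 or 2 zeros, to gene identifiers of GRCm38.p6. This naming is inferred: 93.3% of 9523 such numbers matched, against 45.9% after adding 1 to 5. The genotype test was limma's moderated one (two-sided, Benjamini-Hochberg over all kept probes, threshold 0.05). On simulated data of 5 against 5 arrays and 10225 probes it called 49 of 100 probes changed by a log2 of 0.5 and 86 of 100 changed by 1. How many such changes limma would call on the real arrays, 2 of which stood apart, was not tested. Permutation tests ran in Python with numpy 2.4.6.

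The members, gene lists and tests were chosen with earlier results of these data known. Named genes were the members and Gyk, all kept genes of the lists for fatty acid synthesis and SREBP control, up to 4 genes per other list by the smallest p, Kupffer cell and adipocyte markers, and the genes most and least like the members in pattern. Some genes that the lists or that rule would hold are not reported here, and the counts and medians of the lists leave them out. Replicate numbers follow the labels' order and pair no mice, and the samples are separate mice. Alternatives were another lowest value, normexp, median scaling, cyclic loess, no normalization, no filter, a filter at all 10 arrays, the mean of Insig1's detected probes, array weights, the title number as a block and leaving out mice.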

Additional observations from a re-analysis of the deposited data

How the results depend on the processing

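The log2 differences of Acaca, Fasn and Acss2 kept their sign and moved by less than 1 SD between mice in all 20 alternatives, within 0.19 to 0.28, 0.17 to 0.36 and 0.05 to 0.31. Gyk did the same, within -0.84 to -0.50. The difference of Insig1 kept its sign in 21 alternatives and moved by more than 1 SD in 1, to 0.031 with the title number as replicate block. That block compares the heterozygous mice with wildtype replicates 1 and 2 alone.

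Over all probes the 0 called became 221 without both arrays that stood apart and 410 with array weights, and ran from 0 to 441 when each mouse was left out, with 441 without wildtype replicate 1. The 1221 probes at an unadjusted p under 0.05 became 1911 without a filter (of 24048 tested), 2132 without both arrays that stood apart, 2342 with array weights and 506 with the title number as replicate block, and ran from 747 to 2356 when each mouse was left out. The cause was not tested.

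None of the 10 correlations passed in the 7 alternatives that keep at least 8 mice without the block. The other 10 alternatives allow too few arrangements for a single relation to pass (smallest exact permutation p 0.00694 without 1 mouse and 0.0417 with the block), so they say nothing about passing. In 19 of 170 cases the sign turned. Acaca with Insig1 had -0.33 with both arrays that stood apart, -0.14 as Spearman's rho, -0.16 with the replicate block and -0.30 to 0.44 when each mouse was left out. Fasn with Acss2 ran from -0.29 to 0.74 when each mouse was left out. Acaca with Acss2 kept its sign but ran from 0.033 to 0.81, and had 0.53 with median scaling and 0.59 without normalization. Acaca with Gyk had 0.32 without the 2 mice farthest from the median and -0.65 with the block, and ran from -0.38 to 0.032 when each mouse was left out. Fasn with Gyk had -0.71 without the 2 farthest and -0.58 with the block, and ran from -0.48 to 0.40 when each mouse was left out. Acss2 with Gyk had 0.21 as rho and ran from -0.35 to 0.14 when each mouse was left out. Insig1 with Gyk had -0.23 without the 2 farthest and 0.72 with the block, and ran from -0.10 to 0.45 when each mouse was left out. The filters on dim probes and the 2 arrays already left out do not enter these values, and no fit used the chip, which the labels do not give. The number of mice, and for Insig1 a signal near the detection threshold in the lowest mice, limit these values.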
